A study of Mus musculus with 6 samples.

Results

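The genes described here encode acute-phase proteins and proteins that bind, store, import, export or release iron. They are the acute-phase genes Lcn2, Saa3, Hp and Orm1, the copper-containing ferroxidase gene Cp, which is also an acute-phase gene, and the iron-handling genes Fth1, Ftl1, Slc40a1, Tfrc and Hmox1. The 10 genes were chosen by name, with earlier results of these data known, from the 25860 genes of the deposited count table. All 10 had enough reads to be tested. They were measured by RNA-seq of normal-looking lung from 3 RAG1-/- mice and 3 RAG1-/-Sgo1-/+ mice, each aged 12 months and given no treatment. Both groups lack both copies of RAG1, the recombinase gene that T and B cells need to assemble their antigen receptors, so both groups lack mature T and B cells by design. The second group also carries 1 intact copy of Sgo1, which encodes shugoshin 1, a protein that protects sister chromatids from early separation, and is used as a model of chromosome instability. Both alleles are germline and not restricted to the lung or to a cell type. The mice were F2 offspring of crosses between the lines on a C57BL/6 background. The study used mice of both sexes, but the sequenced groups were not balanced for sex, as given below. Each library came from 1 mouse and from a piece of whole lung, so fewer cells of a type and less RNA per cell cannot be told apart in any value below. The comparison asks whether these genes differ in the lung between mice with and without the Sgo1 mutation.

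The acute-phase response is the rise of a set of secreted proteins after infection or injury, driven mainly by IL-6 and IL-1 through STAT3, C/EBP and NF-kB factors. Liver makes most of these proteins in the circulation, but lung epithelium and macrophages make several of them locally. Cells take up transferrin-bound iron through the transferrin receptor, store it in ferritin and release it through ferroportin. When iron is scarce, iron regulatory proteins bind hairpins in the messenger RNAs, which blocks ferritin and ferroportin translation and protects the transferrin receptor message from decay. RNA-seq counts do not read the translational arm of this control. In the alveoli, macrophages take up and store iron from red cells and inhaled material.

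Replicates 1 to 3 are the RAG1-/- libraries and replicates 4 to 6 the RAG1-/-Sgo1-/+ libraries, as the labels number them. The libraries held 3205822 to 9366774 reads on genes, the fewest in RAG1-/-Sgo1-/+ replicate 6, and 3 reads equal 0.32 to 0.936 counts per 1000000 reads on genes (CPM). Sgo1 had 6, 2 and 4 reads in RAG1-/- against 6, 0 and 2 in RAG1-/-Sgo1-/+, too few to check the genotype. Rag1 had 8 to 24 reads in every library. Some libraries stood apart. RAG1-/- replicate 1 was the only library with high Xist (7717 reads, against 4 to 8 elsewhere), the transcript of the inactive X chromosome. The Y-chromosome gene Ddx3y had 2 reads there against 342 to 1228 elsewhere. By these reads replicate 1 came from a female and every other library, all of RAG1-/-Sgo1-/+ included, from a male. Sex was thus not balanced between the groups, and its part in the values below was not tested. RAG1-/- replicate 2 went against its label, with 1853 reads of the immunoglobulin gene Igkc against 0 to 8 in the others. RAG1-/-Sgo1-/+ replicate 6 lay at least 2-fold above each other library for 432 of 17231 tested genes (2.51%), among them 4 of the genes described here. Values without replicate 6 are given beside the results that rest on it. Alveolar type 2 cell markers summed to 24000 to 33700 CPM in the 6 libraries. Hepatocyte markers, for the liver as another source of acute-phase RNA, summed to 12.1 to 64.5 CPM, with Ttr, Cyp3a11 and Cps1 at 0 reads in every library and Alb at 0 to 6 reads. Nearly all of that sum was Cyp2e1 (10.9 to 64.1 CPM), the only 1 of these markers with enough reads to be tested.

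In the GENCODE annotation of GRCm38 the genes lie at Lcn2 (chr2:32384633-32388252, minus), Saa3 (chr7:46711998-46715700, minus), Hp (chr8:109575128-109579172, minus), Orm1 (chr4:63344560-63348163, plus), Cp (chr3:19957054-20009145, plus), Fth1 (chr19:9980598-9985098, plus), Ftl1 (chr7:45457944-45459884, minus), Slc40a1 (chr1:45908068-45926523, minus), Tfrc (chr16:32608920-32632794, plus) and Hmox1 (chr8:75093621-75100589, plus), each span running from the first to the last annotated base and followed by its strand. These coordinates are not those of the counts, which are on an earlier build.

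The genes differ in how their messages can be regulated, and the hairpins are shown because they separate the iron genes into those controlled in translation and those controlled in stability. A script searched annotated transcripts (GENCODE, GRCm38) for the letters of an iron-responsive element, a C, then 5 bases, the loop CAGTGN and 5 bases that pair with the first 5, G-T pairs included, on the strand of the transcript only. Such letters occur in the 5′ UTR of 18 of 20496 transcripts (0.0878%) and in the 3′ UTR of 106 (0.517%). Among the 10 genes they were found in the 5′ UTR of Fth1, Ftl1 and Slc40a1 and at 4 places in the 3′ UTR of Tfrc. In the lines below the capitals mark the bulged C and the 6-base loop, and each sequence reads 5′ to 3′ along the transcript.

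Fth1, chr19:9982733-9982759, plus strand, 5′ UTR: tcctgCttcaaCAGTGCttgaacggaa
Ftl1, chr7:45459780-45459806, minus strand, 5′ UTR: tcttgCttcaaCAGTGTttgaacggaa
Slc40a1, chr1:45925466-45925492, minus strand, 5′ UTR: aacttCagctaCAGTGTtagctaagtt
Tfrc, chr16:32631220-32631246, plus strand, 3′ UTR: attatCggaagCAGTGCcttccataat
Tfrc, chr16:32631599-32631625, plus strand, 3′ UTR: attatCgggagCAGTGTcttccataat
Tfrc, chr16:32631664-32631690, plus strand, 3′ UTR: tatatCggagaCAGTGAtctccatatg
Tfrc, chr16:32631711-32631737, plus strand, 3′ UTR: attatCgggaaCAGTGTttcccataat

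The hairpins of Fth1 and Ftl1 share the 5 paired bases on each side of the loop, while the Slc40a1 hairpin has another stem. The first 5 loop bases are the same in every match because the search required them. No match in Hp, Lcn2, Saa3, Orm1, Cp or Hmox1 says only that these letters are not in their annotated UTRs.

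Upstream sequence is shown for Lcn2 and Saa3, whose levels were high in replicate 6. Ftl1 was also high there, and its promoter held no match to any of the letters searched below. Orm1 was high there too, but no promoter was matched for it. RefSeq promoters (GRCm38.p6) were matched for 6 of the 10 genes, namely Lcn2, Saa3, Cp, Fth1, Ftl1 and Tfrc. Cp, Fth1 and Tfrc have 2 RefSeq starts each and both were searched. The RefSeq starts of Lcn2 and Saa3 and the second starts of Cp, Fth1 and Tfrc lie inside the GENCODE spans above, which reach to the outermost annotated transcript. The 250 bases before the RefSeq start of Lcn2 and Saa3 are printed with a match to TTGCNNAA, the core letters of a C/EBP site, in capitals. The C/EBP letters lie 216 bases before the RefSeq start of Lcn2 and, on the opposite strand, 99 bases before that of Saa3.

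Lcn2, chr2:32387740-32387989, minus strand: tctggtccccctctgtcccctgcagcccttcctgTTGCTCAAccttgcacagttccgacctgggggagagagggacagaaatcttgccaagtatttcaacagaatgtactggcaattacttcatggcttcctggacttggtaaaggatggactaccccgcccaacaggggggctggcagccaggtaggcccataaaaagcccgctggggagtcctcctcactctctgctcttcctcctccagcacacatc
Saa3, chr7:46715677-46715926, minus strand: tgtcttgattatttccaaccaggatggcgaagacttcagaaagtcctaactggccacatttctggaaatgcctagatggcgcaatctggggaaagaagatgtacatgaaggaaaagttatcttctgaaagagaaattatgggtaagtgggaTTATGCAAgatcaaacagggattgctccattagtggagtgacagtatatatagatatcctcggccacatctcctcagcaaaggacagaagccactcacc

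The same letters occur on either strand in 9.56% of 32851 promoters of this length. They were also found 70 bases before the second, downstream RefSeq start of Cp and 129 and 58 bases before the second start of Fth1. TATAAA, searched on the gene's strand only (7.59% of promoters), was found 25 bases before that same start of Cp. Searches on both strands for GGGNN followed at once by TTTCC (NF-kB, 1.41% of promoters), TTCNNNGAA (STAT, 7.02%) and TGACNNNGC (the antioxidant response element, 10.2%) gave no match in the 6 genes. A match is a string of letters and not a measured binding site.

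Lcn2 encodes lipocalin 2, which binds the bacterial siderophores that scavenge iron. Its level in the RAG1-/- libraries was 115, 66.7 and 55.4 CPM. In the RAG1-/-Sgo1-/+ libraries it was 110, 63.4 and 413 CPM. Replicate 6 alone was high, 3.6 times the next library, while replicates 4 and 5 lay inside the RAG1-/- range and the groups overlapped. The means were 78.9 ± 31.5 and 196 ± 190 CPM (SD, n = 3 each). In edgeR's fit the log2 fold change of RAG1-/-Sgo1-/+ over RAG1-/- was 1.29 (SE 0.57, 2.45-fold). Its unadjusted P was 0.0481 in edgeR's quasi-likelihood test and 0.832 after Benjamini-Hochberg adjustment. The exact permutation test on CPM, two-sided, gave P = 0.5, where 3 against 3 libraries cannot go below 0.1. Without replicate 6 the log2 fold change was 0.13 (SE 0.31, 95% confidence interval -0.58 to 0.84, edgeR adjusted P = 0.967).

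Saa3 encodes serum amyloid A3, the member of its family made mainly outside the liver, in macrophages and epithelium. It had 24, 18 and 34 reads in RAG1-/- (2.56, 3.64 and 5.15 CPM) against 12, 16 and 158 reads in RAG1-/-Sgo1-/+ (2.42, 2.96 and 49.3 CPM). Again only replicate 6 was high, 9.58 times the next library, and the other 5 libraries lay within 2.12-fold of each other. Over all 6 libraries the log2 fold change was 2.21 (SE 0.98, 4.63-fold), with an edgeR P of 0.0481, an adjusted P of 0.832 and an exact permutation P of 0.9. Without replicate 6 the sign turned, to -0.47 (SE 0.50, edgeR adjusted P = 0.933). The relatives of Saa3 that the liver makes were near absent, with 4 reads of Saa1 in replicate 6 only, 2 reads of Saa2 in replicate 4 only and 0 reads of Saa4 in every library.

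Orm1, which encodes orosomucoid 1, a plasma carrier protein, was close to the limit of detection. Its reads were 20, 2 and 4 in RAG1-/- against 2, 0 and 18 in RAG1-/-Sgo1-/+. Replicates 1 and 6, 1 of each group, held most of them. Its log2 fold change was 0.70 (SE 1.24, edgeR adjusted P = 0.945) and turned to -2.39 (SE 1.34) without replicate 6, so no difference was detectable at this depth. The close copies Orm2 and Orm3 had at most 3 reads in any library.

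**Figure D1:**
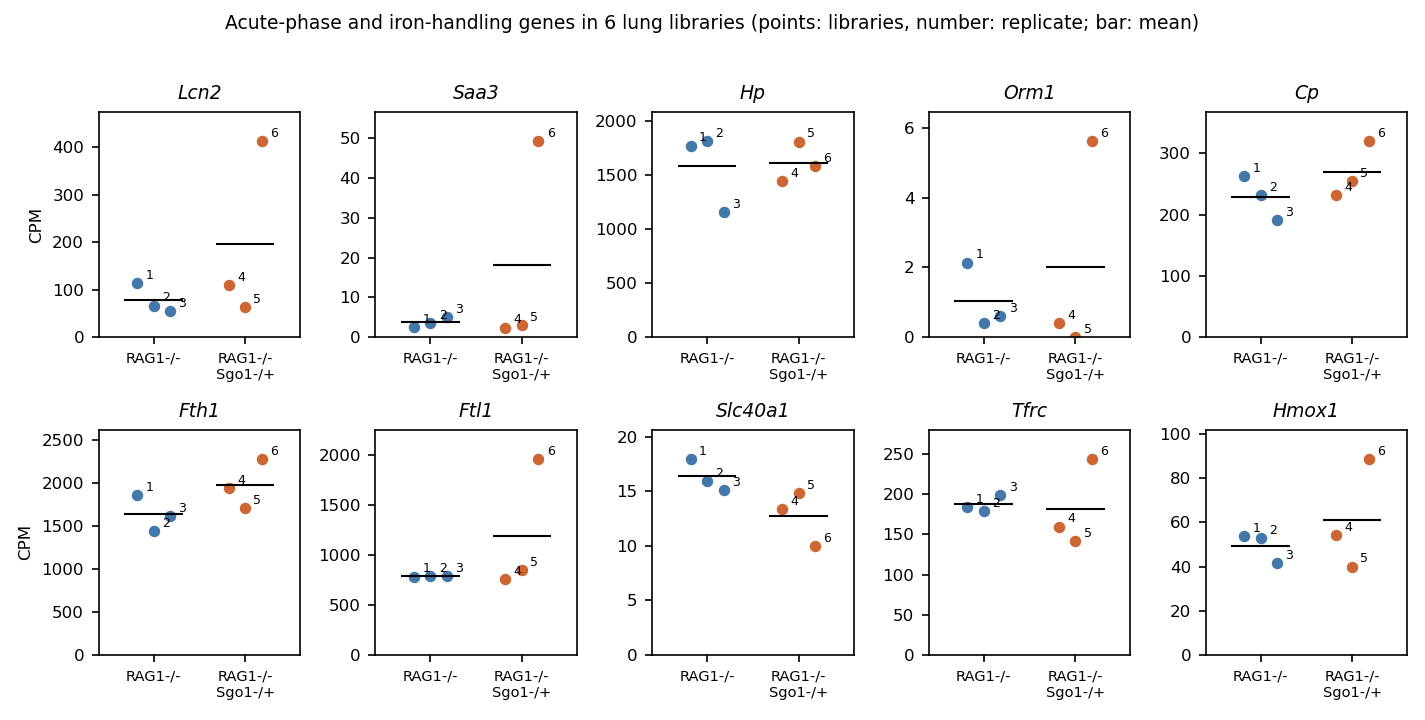
Level of each of the 10 genes in CPM (linear axis from 0), with 1 point per library numbered by replicate, RAG1-/- in blue and RAG1-/-Sgo1-/+ in orange, and a bar at the group mean. Replicate 6 is the highest point for 8 of the 10 genes and the lowest for Slc40a1, and without it the groups overlap except for Slc40a1 and Tfrc.

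Hp encodes haptoglobin, which binds free haemoglobin. It was by far the most abundant of the acute-phase genes, at 1769, 1810 and 1159 CPM in RAG1-/- against 1444, 1807 and 1579 CPM in RAG1-/-Sgo1-/+. Replicate 6 was not high for Hp, and the lowest library was RAG1-/- replicate 3. For Hp the log2 fold change was 0.03 (SE 0.18, 95% confidence interval -0.38 to 0.43, edgeR adjusted P = 0.989).

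Cp encodes ceruloplasmin, the ferroxidase that oxidises iron as ferroportin exports it. Its level was 263, 232 and 190 CPM in RAG1-/- against 232, 254 and 320 CPM in RAG1-/-Sgo1-/+. Replicate 6 was the highest, 1.22 times the next, and the groups overlapped. Its log2 fold change was 0.23 (SE 0.16, edgeR adjusted P = 0.858), and 0.09 without replicate 6. The related membrane ferroxidase Heph had a log2 fold change of -0.18 (SE 0.26, edgeR adjusted P = 0.931), and Hephl1 had 0 reads in every library.

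Ferritin is a shell of heavy chains (Fth1), which oxidise iron, and light chains (Ftl1), which help it to mineralise. Fth1 read 1857, 1439 and 1609 CPM in RAG1-/- against 1938, 1702 and 2274 CPM in RAG1-/-Sgo1-/+. Ftl1 read 786, 794 and 788 CPM in RAG1-/- against 757, 853 and 1963 CPM in RAG1-/-Sgo1-/+. The Ftl1 values of 5 libraries thus lay within 1.13-fold of each other, the narrowest spread among the 10 genes, and replicate 6 was 2.3 times the next. For Fth1 replicate 6 was also the highest, but only 1.17 times the next. Fth1 had a log2 fold change of 0.27 (SE 0.15, edgeR adjusted P = 0.832) and Ftl1 one of 0.59 (SE 0.31, 1.51-fold, edgeR adjusted P = 0.832). Without replicate 6 they were 0.15 (SE 0.14) and 0.03 (SE 0.12).

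The Ftl1 values carry a further limit, since the expressed pseudogene Ftl2-ps is a near-identical copy and how the counting split reads between the 2 is not stated. Ftl2-ps read 313, 279 and 274 CPM in RAG1-/- against 310, 359 and 504 CPM in RAG1-/-Sgo1-/+, with a log2 fold change of 0.44 (SE 0.18, edgeR adjusted P = 0.832, below 0.05 before adjustment). That value was 0.21 without replicate 6 and no longer passed 0.05 before adjustment. Summed, the copies gave 1061 to 1099 CPM in RAG1-/- against 1066, 1212 and 2467 CPM in RAG1-/-Sgo1-/+ (exact permutation P = 0.3). Replicate 6 was thus 2.04 times the next library however reads were split between these 2 copies. Reads dropped or placed on other copies, such as Ftl1-ps1, which is not among the counted genes, are not covered by this sum. Mitochondrial ferritin (Ftmt) and Fthl17a had 0 reads in every library.

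Slc40a1 encodes ferroportin, the iron exporter. It was the only one of the 10 genes whose groups did not overlap. Its reads were 168, 79 and 100 in RAG1-/- (17.9, 16.0 and 15.1 CPM) against 66, 80 and 32 in RAG1-/-Sgo1-/+ (13.3, 14.8 and 9.98 CPM). Replicate 6, high for most of the other genes, was here the lowest, and the nearest libraries of the groups were 14.8 and 15.1 CPM. Its log2 fold change was -0.35 (SE 0.21, 95% confidence interval -0.83 to 0.13), with an edgeR P of 0.132, an adjusted P of 0.84 and an exact permutation P of 0.1, the smallest the design allows. Without replicate 6 it was -0.22 (SE 0.20, edgeR adjusted P = 0.923). Over all tested genes the groups did not overlap for 11.8%, with 5.54% lower and 6.24% higher in RAG1-/-Sgo1-/+, and 1 of 10 is close to that background.

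Tfrc encodes the transferrin receptor, the main route of iron uptake. It read 184, 179 and 199 CPM in RAG1-/- against 160, 142 and 244 CPM in RAG1-/-Sgo1-/+. Replicates 4 and 5 were the lowest of the 6 libraries and replicate 6 the highest, so the group means of 187 ± 10.6 and 182 ± 54.4 CPM (SD, n = 3 each) were close. Between all 6 libraries the log2 fold change was -0.05 (SE 0.19, 95% confidence interval -0.47 to 0.38, edgeR adjusted P = 0.981). With replicates 4 and 5 alone against RAG1-/- it was -0.31 (SE 0.12, 95% confidence interval -0.59 to -0.03), with an edgeR P of 0.0316 and an adjusted P of 0.9. The liver-type receptor Tfr2 had at most 4 reads in any library. Proliferation markers, which often move with Tfrc, summed to 46.1 to 56.9 CPM in RAG1-/- against 46.1 to 73.3 CPM in RAG1-/-Sgo1-/+, and their part in the Tfrc values was not tested.

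Hmox1 encodes haem oxygenase 1, which releases iron from haem and is induced by haem and oxidative stress. It read 53.8, 52.7 and 41.6 CPM in RAG1-/- against 54.1, 40.0 and 88.6 CPM in RAG1-/-Sgo1-/+. Replicate 6 was 1.64 times the next library and replicates 4 and 5 were the second highest and the lowest. Over all libraries its log2 fold change was 0.29 (SE 0.25, edgeR adjusted P = 0.874), and -0.07 (SE 0.18) without replicate 6. Its constitutive relative Hmox2 lay between 54.8 and 62.4 CPM in all 6 libraries (log2 fold change below 0.01 in size, edgeR adjusted P = 0.997).

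**Figure D2:**
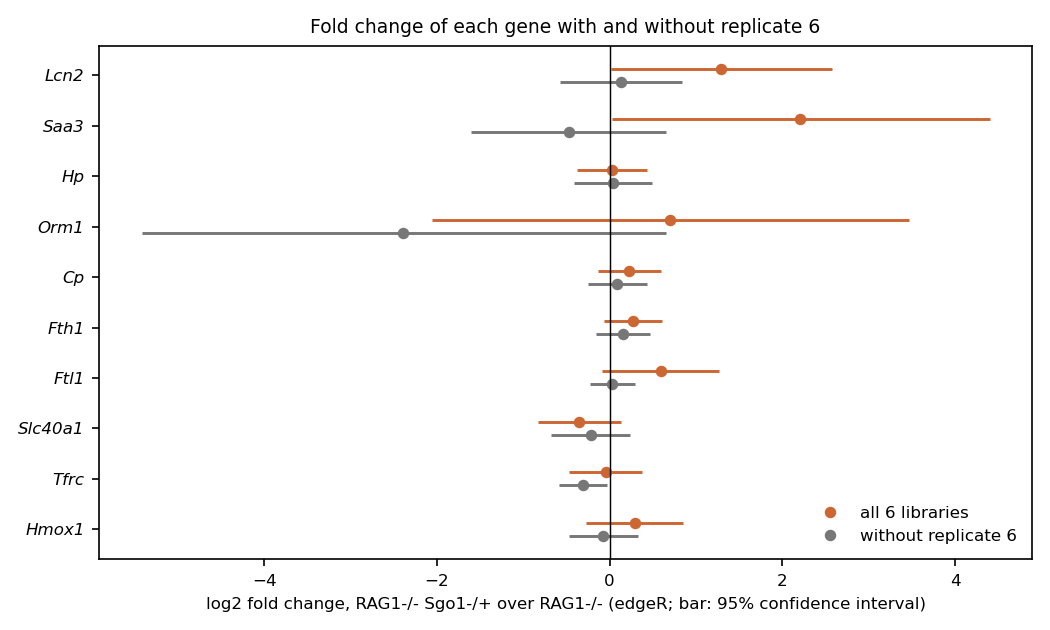
The log2 fold change of RAG1-/-Sgo1-/+ over RAG1-/- for each of the 10 genes from edgeR (points) with its 95% confidence interval (bars), over all 6 libraries in orange and without RAG1-/-Sgo1-/+ replicate 6 in grey. Lcn2 moves from 1.29 to 0.13, Saa3 from 2.21 to -0.47 and Ftl1 from 0.59 to 0.03, while Tfrc moves from -0.05 to -0.31.

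Over the 10 genes, 0 passed an adjusted P under 0.05 with a change of at least 2-fold in edgeR, and 0 of all 17231 tested genes did (0%), with 0.832 as the smallest adjusted P of the table. At an unadjusted edgeR P under 0.05 there were 2 of the 10, Lcn2 and Saa3, both higher in RAG1-/-Sgo1-/+. The same threshold held 976 of all tested genes (5.66%), and 542 of all tested genes (3.15%) passed it and were higher in RAG1-/-Sgo1-/+. Limma-voom gave 0 of the 10 at that threshold. The DESeq2 test also gave 0, but it returned no P for Saa3. After adjustment DESeq2 called 1 gene of the table, Awat1, and limma-voom 0. The sign of the log2 fold change was positive for 8 and negative for 2, with a median of 0.28 against 0.03 over all tested genes. Without replicate 6 the median was -0.02 against 0.02, with 5 positive and 5 negative, and 1 of the 10 (Tfrc, lower) passed the unadjusted threshold against 4.99% of 17049 tested genes.

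Replicate 6 was the highest of the 6 libraries for 8 of the 10 genes, against 25.4% of all tested genes, and the lowest for 1, against 21.9%. It lay at least 2-fold above each other library for 4 of them, Lcn2, Saa3, Orm1 and Ftl1, against 2.51% of all. The 10 genes were chosen with earlier results of these data known, so these shares are a description and not a test. The genes thus split in this animal. Besides those 4, Hmox1, Tfrc, Cp and Fth1 were highest there by 1.17 to 1.64 times, Hp was inside the range and Slc40a1 was below it.

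Ratios within a library do not depend on its total, and the pairs here set storage, uptake and export against the ferritin heavy chain. Reads of Ftl1 per read of Fth1 were 0.423, 0.552 and 0.49 in RAG1-/- against 0.39, 0.501 and 0.863 in RAG1-/-Sgo1-/+, with replicate 6 the highest and replicate 4 the lowest. Reads of Tfrc per read of Fth1 were 0.0989, 0.124 and 0.124 in RAG1-/- against 0.0823, 0.0834 and 0.107 in RAG1-/-Sgo1-/+. Those of Slc40a1 were 0.00966, 0.0111 and 0.00941 in RAG1-/- against 0.00688, 0.00871 and 0.00439 in RAG1-/-Sgo1-/+. The Slc40a1 ratio was the only one of the 3 whose groups did not overlap. It reuses the Slc40a1 reads, whose CPM were already apart, and is not separate evidence. As log2 differences of RAG1-/-Sgo1-/+ from RAG1-/-, the Slc40a1 ratio gave -0.65 (exact permutation P = 0.1, 0.3 adjusted over the 3 ratios), the Tfrc ratio -0.35 (exact P = 0.2, adjusted 0.3) and the Ftl1 ratio 0.19 (exact P = 0.8, adjusted 0.8).

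**Figure D3:**
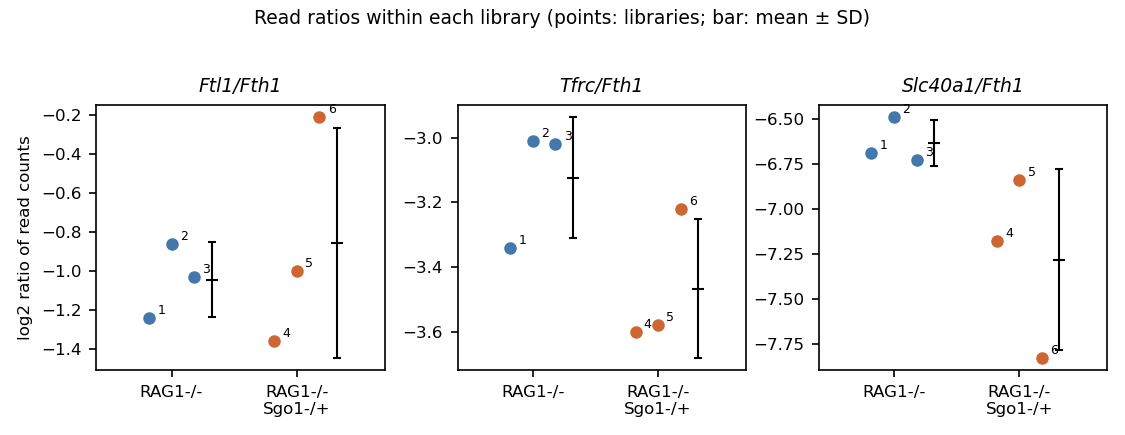
Log2 ratios of read counts within each library for Ftl1, Tfrc and Slc40a1 over Fth1, with 1 point per library numbered by replicate and the mean ± SD of each group of 3 beside the points. The groups are apart only for Slc40a1 over Fth1, where replicate 6 is the lowest, and replicate 6 is the highest for Ftl1 over Fth1.

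Compared per length, as CPM per kilobase of the transcript, ferritin and haptoglobin messages were far above the rest. In RAG1-/- the order of the mean levels was Fth1 (1760), Hp (1170), Ftl1 (815), Lcn2 (86.2), Cp (50.8), Tfrc (38.3), Hmox1 (31.5), Saa3 (6.81), Slc40a1 (4.85) and Orm1 (1.35 CPM per kilobase). Of the neighbours in this order only Saa3 and Slc40a1 overlapped between libraries, at 4.62 to 9.27 and 4.49 to 5.32 CPM per kilobase. In RAG1-/-Sgo1-/+ the order of the means was Fth1 (2120), Ftl1 (1230), Hp (1200), Lcn2 (214), Cp (59.7), Hmox1 (38.8), Tfrc (29.0 to 49.8 over the libraries), Saa3 (32.8), Slc40a1 (3.77) and Orm1 (2.59). Replicate 6 set part of this order. In replicates 4 and 5 alone Hp (1210) was above Ftl1 (831), Lcn2 averaged 94.8, Saa3 4.85 and Orm1 0.261 CPM per kilobase. Over all 3 libraries, the libraries of every pair of neighbours overlapped except those of Hp and Lcn2. The levels are the deposited reads over 1 annotated transcript per gene, so isoforms and shared reads can move them.

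Of 26 other acute-phase genes on the list, 18 were tested and 0 passed an unadjusted edgeR P under 0.05 in either direction, with a median log2 fold change of 0.20. Without replicate 6 the median was -0.09, and 1 was higher (Serpina3n, log2 fold change 0.67). Crp, Apcs, Fgb, Serpina1a, A2m and Ttr, made by the liver, had 0 reads in every library. The most abundant, the complement gene C3, read 187, 741 and 777 CPM in RAG1-/- against 565, 374 and 1190 CPM in RAG1-/-Sgo1-/+, again highest in replicate 6, and the complement inhibitor gene Serping1 averaged 360 ± 139 and 368 ± 54.9 CPM (SD, n = 3 each). Replicate 6 was the highest library for 11 of the 18 tested, against 25.4% of all tested genes.

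Among 25 other genes of iron uptake, storage and export, 0 were higher and 2 lower at an unadjusted edgeR P under 0.05. Over all tested genes 5.66% passed it. Hamp encodes hepcidin, the hormone that makes cells degrade ferroportin. It had 18, 8 and 22 reads in RAG1-/- against 6, 2 and 0 in RAG1-/-Sgo1-/+, with the groups apart (log2 fold change -1.97, SE 0.84, edgeR adjusted P = 0.832). The groups were apart in that direction for 5.54% of all tested genes. Replicate 6, where Slc40a1 was lowest, was thus the library without a Hamp read, although 3 reads there equal 0.936 CPM. Pcbp2, which encodes an iron chaperone that also binds RNA, read 297 to 300 CPM in RAG1-/- against 241, 271 and 228 CPM in RAG1-/-Sgo1-/+ (log2 fold change -0.27, SE 0.12, edgeR adjusted P = 0.832). Without replicate 6 neither Hamp (log2 fold change -1.53) nor Pcbp2 (-0.22) passed that threshold and 1 gene was lower, Hjv (-2.48), the gene of the hepcidin regulator hemojuvelin. The metal importer gene Slc39a8 was the most abundant, at 624 ± 121 and 620 ± 146 CPM. The median log2 fold change of the list was 0.03, as over all tested genes.

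Of 23 genes of IL-6, IL-1 and STAT3 signalling, the pathway that induces acute-phase genes, 2 were higher and 0 lower at an unadjusted edgeR P under 0.05. Over all tested genes 5.66% passed that threshold, and 3.15% passed it and were higher. Il6ra, the IL-6 receptor gene, read 16.1, 18.6 and 20.4 CPM in RAG1-/- against 27.9, 24.1 and 27.1 CPM in RAG1-/-Sgo1-/+. Here all 3 RAG1-/-Sgo1-/+ libraries were above all 3 RAG1-/- libraries, as in 6.24% of all tested genes. Replicate 6 was not the highest for Il6ra (log2 fold change 0.52, SE 0.17, edgeR adjusted P = 0.832). Socs3, a feedback inhibitor that STAT3 induces, read 48.7, 52.9 and 45.6 CPM in RAG1-/- against 56.6, 53.7 and 88.6 CPM in RAG1-/-Sgo1-/+ (log2 fold change 0.43, SE 0.19, edgeR adjusted P = 0.832). Without replicate 6 Il6ra still passed the unadjusted threshold (log2 fold change 0.50) and Socs3 did not (0.17), while Cebpd was higher (0.50) and Nfkbiz lower (-0.53). The abundant members Il6st and Stat3 had log2 fold changes of -0.04 and 0.12. Il6 itself had 6, 0 and 8 reads in RAG1-/- against 2, 0 and 10 in RAG1-/-Sgo1-/+.

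Next come the lists nearest to Hmox1. Of 19 genes of haem synthesis, transport and breakdown and 13 of the NRF2 pathway, which induces Hmox1 and the ferritin genes under oxidative stress, 0 passed an unadjusted edgeR P under 0.05 in either direction. Their median log2 fold changes were 0.02 and 0.06. Without replicate 6, 1 gene of each list was lower at that threshold, Blvra, which encodes biliverdin reductase (log2 fold change -0.57), and Prdx1 (-0.27). The most abundant were Alas1, the first enzyme of haem synthesis (378 ± 83.4 and 440 ± 60.8 CPM), and the haem transporter gene Slc48a1 (212 ± 14.1 and 239 ± 19.4 CPM), and in the NRF2 list Prdx1 (378 ± 21.9 and 339 ± 44.2 CPM) and Nfe2l2, which encodes NRF2 itself (348 ± 22.7 and 320 ± 39.5 CPM).

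Markers of macrophages and some airway genes were also high in replicate 6. The 10 alveolar macrophage markers summed to 589 to 1140 CPM in RAG1-/- against 609 to 6790 CPM in RAG1-/-Sgo1-/+, where replicate 6 was 11.1 times the median of the others. Most of that sum was Chil3, which encodes a chitinase-like protein, at 6083 CPM in replicate 6 and 238 to 651 CPM in the others. Itgax (CD11c) was 4.19 times the next library there, but Marco was 0.97 times the highest other library. Siglecf, a defining marker of alveolar macrophages, was lower in all 3 RAG1-/-Sgo1-/+ libraries (log2 fold change -0.85, SE 0.28, edgeR adjusted P = 0.832). Such a separation was found for 5.54% of all tested genes. Of the 10 markers 6 were highest in replicate 6, 2 were higher and 1 lower at an unadjusted edgeR P under 0.05, and none was at 0 reads in every library. Over all tested genes replicate 6 was the highest for 25.4%, and 5.66% passed that threshold. Leaving out replicate 6 turned the balance to 0 higher and 3 lower (Siglecf, Marco and Car4), with the median log2 fold change at -0.60 instead of -0.12. Car4 is also on the list of endothelial markers. The 9 markers of other macrophages and monocytes summed to 375 to 436 and 395 to 712 CPM, with 6 highest in replicate 6, 1 higher and 0 lower. That 1 was Cd68, at 3.88 times the next library in replicate 6, and without that library 0 were higher and 0 lower. The part of macrophages in the Lcn2, Saa3, Ftl1 and Hmox1 values was not tested.

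Neutrophils are another source of Lcn2 and Hp. Their 10 markers summed to 76.4 to 125 CPM in RAG1-/- against 25.3 to 61.5 CPM in RAG1-/-Sgo1-/+, with 58.0 CPM in replicate 6, and Ly6g and Mpo were at 0 reads in every library. Of the 6 tested, 0 were higher and 3 lower at an unadjusted edgeR P under 0.05, which 5.66% of all tested genes passed. The 3 were S100a8, S100a9 and Csf3r, with S100a9 at a log2 fold change of -1.43 (SE 0.35, edgeR adjusted P = 0.832). The count without replicate 6 was again 0 higher and 3 lower, with Retnlg in place of Csf3r. Replicate 6 was the highest library for 1 of the 10, Mmp8, at 7.49 CPM against 1.51 to 4.70 in the others. The part of neutrophils in the Lcn2 and Hp values was not tested. The 9 club and secretory airway markers summed to 54000 to 79700 CPM in RAG1-/- against 57000 to 81100 CPM in RAG1-/-Sgo1-/+, with 5 highest in replicate 6. Most of that sum was Scgb1a1, at 58560 CPM in replicate 6 and 47500 to 72840 CPM in the others. In that list 1 gene was higher and 0 lower, the gel-forming mucin gene Muc5ac, with 25, 12 and 8 reads in RAG1-/- against 9, 12 and 161 in RAG1-/-Sgo1-/+ (18.8 times the next library in CPM). Without replicate 6 the club and secretory list had 0 higher and 0 lower, and the log2 fold change of Muc5ac was -0.06. The part of airway cells in the Lcn2 and Saa3 values was not tested.

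Red cell RNA bears on haemoglobin iron. The 8 erythroid markers in the table summed to 3330 to 9050 CPM in RAG1-/- against 2500 to 4570 CPM in RAG1-/-Sgo1-/+. Of the 7 tested, 0 were higher and 4 lower at an unadjusted edgeR P under 0.05, which 5.66% of all tested genes passed. The 4 were the globin genes Hba-a1, Hba-a2, Hbb-bs and Hbb-b1, with log2 fold changes of -0.77 to -0.96 and all adjusted P at 0.832. Without replicate 6, 0 passed that threshold, with log2 fold changes of -0.71 to -0.86 for the 4. These near-identical copies share reads, and the part of blood in the Hmox1, Hp and Slc40a1 values was not tested. Adipocyte markers summed to 968 CPM in RAG1-/- replicate 1, the RAG1-/- library highest for Lcn2 and Orm1, and to 78.0 to 156 CPM in the others. Without that library the log2 fold change of Lcn2 was 1.67 and that of Saa3 1.96, and without RAG1-/- replicate 2 they were 1.19 and 2.19.

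**Figure D4:**
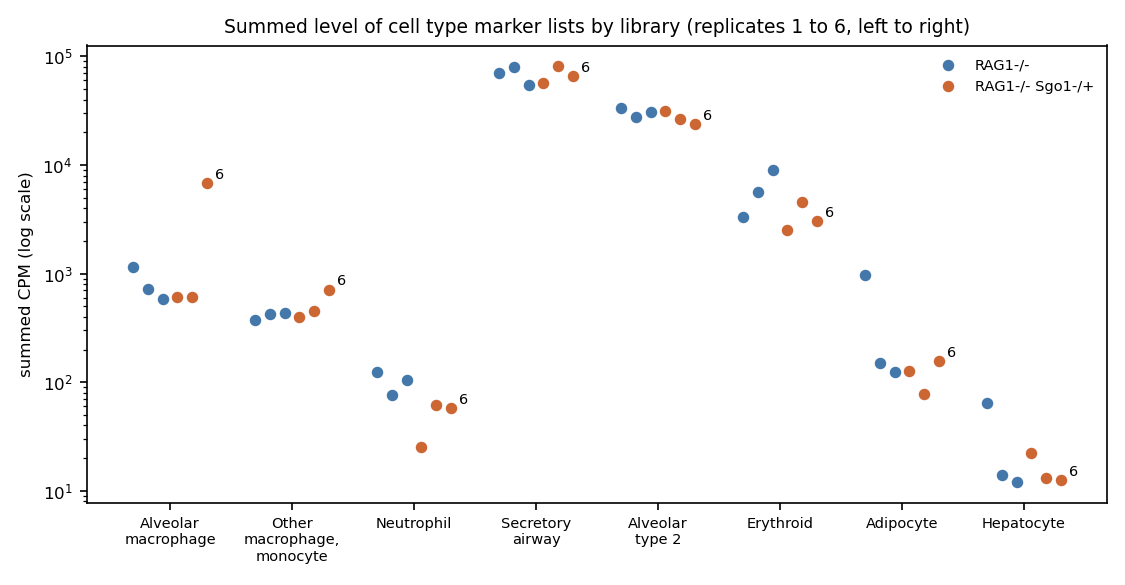
Summed level in CPM (log axis) of 8 lists of cell type markers in each library, replicates 1 to 6 from left to right, RAG1-/- in blue and RAG1-/-Sgo1-/+ in orange. Replicate 6, marked 6, is 11.1 times the median of the other libraries for alveolar macrophage markers. It is the highest library for other macrophage and monocyte markers and the lowest for alveolar type 2 markers. It lies inside the range of the others for neutrophil, secretory airway, erythroid, adipocyte and hepatocyte markers. The secretory airway sum is mostly Scgb1a1, at 58560 CPM in replicate 6. Most of the alveolar macrophage sum in replicate 6 is Chil3, at 6083 CPM.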

How the data were processed

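Total RNA was extracted with Trizol from lung, and TruSeq V2 libraries were sequenced in pairs on an Illumina MiSeq. The authors deposited read counts for 25860 genes, produced in GeneSifter from reads on an older mouse build and left as unnormalized whole numbers. The submitters' processing notes name BWA and edgeR, and the treatment of reads mapping to several places is not given in the sources used here. Each library fills 2 identical columns, of which 1 was read. Between 63.5% and 69% of the nonzero counts of a library were even, so pairs may mostly have been counted as 2 reads. The deposited table of the authors' own comparison (group means, ratios, p-values and ontology terms) was not used. Symbols were matched by Entrez Gene ID for 24048 genes (93.0%).

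Genes with at least 10 reads over the 6 libraries entered edgeR's quasi-likelihood test (edgeR 4.0.16, R 4.3.3) with library sizes set to total counts, Benjamini-Hochberg adjustment over all tested genes, and a call at an adjusted P under 0.05 with at least a 2-fold change. Fold changes are those of the fit (prior count 0.125), and the SE is the log2 fold change over the square root of F. Two-sided exact permutation tests of CPM ran over the 20 splits of 3 against 3. Alternatives used DESeq2 1.42.0, limma 3.58.1, other factors and filters, thinned or halved counts, and left-out libraries. Each library is 1 mouse, so n counts mice. Depth was 3205822 to 9366774 reads, and the detection limit of 3 reads covers counting error only. The workflow was tested on simulated data. Hairpins and levels per length used 1 GENCODE vM21 transcript per gene on GRCm38, and promoters are from RefSeq. These coordinates are not those of the counts' build.

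The 10 genes and the gene and marker lists were chosen with earlier results of these data known. Named from the lists were all near relatives, up to 5 genes per list with the lowest unadjusted P under 0.05, the 2 most abundant and, of markers, those at 0 reads. Other genes named outside the 10 (such as Il6, Xist, Igkc, Alb and Marco) were chosen after their values were seen.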

Additional observations from a re-analysis of the deposited data

How the results depend on the processing

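Across 149 alternative fold changes of the 10 genes, 137 kept their direction and 12 turned it, and no gene was called under any alternative (smallest adjusted P 0.57). The number of the 10 at an unadjusted P under 0.05 was 2 in the report. It was 3 with no filter, 2 with edgeR's own filter or thinned counts, and 1 with TMM factors or DESeq2 size factors. With the DESeq2 test (no P for Saa3), limma-voom or halved counts it was 0, as at an unadjusted P under 0.01. It was 1 without both RAG1-/- replicate 2 and RAG1-/-Sgo1-/+ replicate 6. With 1 library left out it was 0 to 4. That was 0 without RAG1-/- replicate 2 or 3 and 1 without RAG1-/- replicate 1 or RAG1-/-Sgo1-/+ replicate 6. It was 3 without RAG1-/-Sgo1-/+ replicate 4 and 4 without RAG1-/-Sgo1-/+ replicate 5. Over all genes, 976 in the report, it was 571 to 1420 with 1 library left out, 611 without both libraries and 129 at P under 0.01. The calls over all genes were 1 with DESeq2 (Awat1, 65 reads in replicate 6 and 0 elsewhere) and 0 to 1 with 1 library left out (H2-K1, without RAG1-/-Sgo1-/+ replicate 5). H2-K1 had 2377, 1092 and 1510 reads in RAG1-/- against 114, 2107 and 101 in RAG1-/-Sgo1-/+. Leaving out 1 library at a time, log2 fold changes spanned -0.47 to 2.75 for Saa3, -2.39 to 1.79 for Orm1, -0.15 to 0.14 for Hp, -0.31 to 0.11 for Tfrc and -0.071 to 0.52 for Hmox1, and the Ftl1 to Fth1 difference from -0.13 to 0.44. Without both libraries it was -0.49 for Saa3, -2.74 for Orm1 and -0.024 for Hmox1, and limma-voom gave -1.07 for Orm1. Except where a library was left out, the cause was not tested. Of 300 alternative list medians 14 moved. No paired analysis was possible because the groups share no replicate number. Depth limits Orm1, Hamp, Tfr2 and the liver-type genes, which held few reads.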

Other observations

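The genes below were chosen after their values were seen, for their level in RAG1-/-Sgo1-/+ replicate 6, and carry no test of that choice. Lrg1, which encodes a secreted acute-phase glycoprotein, read 97.9, 65.3 and 50.4 CPM in RAG1-/- against 75.2, 68.2 and 278 CPM in RAG1-/-Sgo1-/+, 2.84 times the next library in replicate 6. Il1rn, the gene of the IL-1 receptor antagonist, had 140, 28 and 48 reads in RAG1-/- against 46, 38 and 162 in RAG1-/-Sgo1-/+, and was 3.38 times the next library there in CPM. Itih4, another acute-phase gene, was 2.1 times the next library. The phagosome iron transporter gene Slc11a1 read 2.63 to 6.81 CPM in the other 5 libraries and 20.6 CPM in replicate 6. In all 4 genes replicates 4 and 5 lay inside the RAG1-/- range, as they did for Lcn2.

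Of the secreted airway genes, Reg3g, which encodes an antibacterial lectin, read 614 CPM in replicate 6 and 63.2 to 165 CPM in the others, and Bpifb1 read 296 CPM against 26.7 to 118 CPM. Ciliated cell markers did not share the pattern. Foxj1, the regulator of motile cilia, was at 301 CPM in replicate 6 and 165 to 383 CPM in the others (log2 fold change 0.58, SE 0.24, edgeR adjusted P = 0.832).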
